A study of Mus musculus with 4 samples.

Results

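The genes described here encode the ephrin, semaphorin, Slit and netrin guidance cues and their Eph, plexin, neuropilin, Robo and Unc5 receptors. They were taken by name among the protein-coding genes of the deposited table, which gave 67 of its 51826 genes, and all 67 are accounted for below. RNA was sequenced from 4 libraries of mouse embryonic stem cells on a C57BL/6 background that had been directed towards mesoderm for 3 days, 2 from wild-type cells and 2 from cells lacking Stk40 (Stk40-/-), a gene for a pseudokinase. Cells of both genotypes had been kept on feeder fibroblasts with LIF, CHIR99021 and PD0325901, were passaged once onto gelatin to remove the feeders, and then received BMP4 at 10 ng/ml with serum replacement for 2 days and CHIR99021, which inhibits GSK3, at 1 uM for 1 more day together with 0.5% DMSO. By its title the series is about c-JUN protein and the forming of mesoderm after Stk40 deletion. Nothing in the labels says whether the libraries of a genotype came from separate cultures or from 1 clone each, so the p-values below measure only the spread between these libraries, which may be technical, and a difference between genotypes cannot be told apart from one between lines.

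Guidance cues were named for steering axons, but the same ligands and receptors act wherever cells attract, repel or sort from each other. Eph receptors are receptor tyrosine kinases that bind ephrins on a touching cell. Ephrins of class A are held in the membrane by a lipid anchor and those of class B span it, and both can signal back into their own cell. Semaphorins signal through plexins, for most secreted class 3 members with a neuropilin as co-receptor. Slits bind Robo receptors, and netrins bind Unc5 receptors and DCC. In the gastrulating embryo and the early mesoderm these systems are known for keeping cell groups apart, as at the somite boundary, and for patterning blood vessels.

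The values are TPM (a measure of abundance per transcript length and library total), so levels can be compared between genes of a library, but sequencing depth is unknown and no counting interval is given. Stk40 itself was at 28.9 and 39.9 TPM (wild type) against 3.54 and 3.17 TPM (Stk40-/-), low in both libraries labelled Stk40-/-. Of 15 primitive streak and mesoderm markers 7 had a mean of at least 1 TPM, and for 6 of these the wild-type values all exceeded the Stk40-/- values. Their summed level was 1375 and 721 TPM in wild type and 454 and 302 TPM in Stk40-/- cells, most of it from T, with wild-type library 1 far above library 2. The streak gene Mixl1 was at 24.7 and 6.77 TPM (wild type) against 2.06 and 1.71 TPM (Stk40-/-) and the presomitic gene Msgn1 at 90.6 and 7.22 TPM (wild type) against 0.97 and 0 TPM (Stk40-/-). Another 8 of the 15, among them Tbx6, Mesp1, Kdr and Pdgfra, had means below 1 TPM. The label of mesoderm-like cells thus met a part of its markers. All 7 pluripotency markers were tested, with 2 apart and higher (Nanog and Klf4), 1 apart and lower (Zfp42) and a summed level of 779 and 858 against 886 and 869.8 TPM. In bulk RNA, fewer cells of a type and less RNA per cell cannot be told apart. Marker levels of other cells differed as well. In 4 of 5 tested neural markers both Stk40-/- libraries were above both wild-type libraries (summed level of all 11, 82.6 and 89.4 against 95.8 and 136 TPM). In 4 of 6 tested feeder fibroblast markers they were below (all 10, 25.3 and 34.1 against 22.4 and 18.3 TPM). Beside these marker counts, both Stk40-/- libraries were above both wild-type libraries in 27.5% of all tested genes and below both in 16.6%. The part of these cell types in the values below was not tested.

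Of the 67 guidance genes 48 had a mean of at least 1 TPM over the 4 libraries and were tested, and 28 had at least 5 TPM. Eph receptors of class A had the highest summed level of any family in wild type, 203 and 152 TPM (wild type) against 138 and 112 TPM (Stk40-/-). Plexins summed to 136 and 132 TPM (wild type) against 148 and 138 TPM (Stk40-/-) and were the highest family in both Stk40-/- libraries. The transmembrane and anchored semaphorins of classes 4 to 7 summed to 97.6 and 103 TPM (wild type) against 121 and 129.7 TPM (Stk40-/-). In wild type Epha1 made up 15.9% of the summed level of all 67 genes. The leading gene's share of its family in wild type ranged from 38.3% for Efna4 in the class A ephrins to 94.2% for Unc5b in the Unc5 genes. Neuropilins were the lowest family in every library with 2.60 and 2.17 TPM (wild type) against 2.54 and 2.33 TPM (Stk40-/-). Netrins, Slit genes and Robo genes each stayed below 10 TPM in sum in every library.

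**Figure D1:**
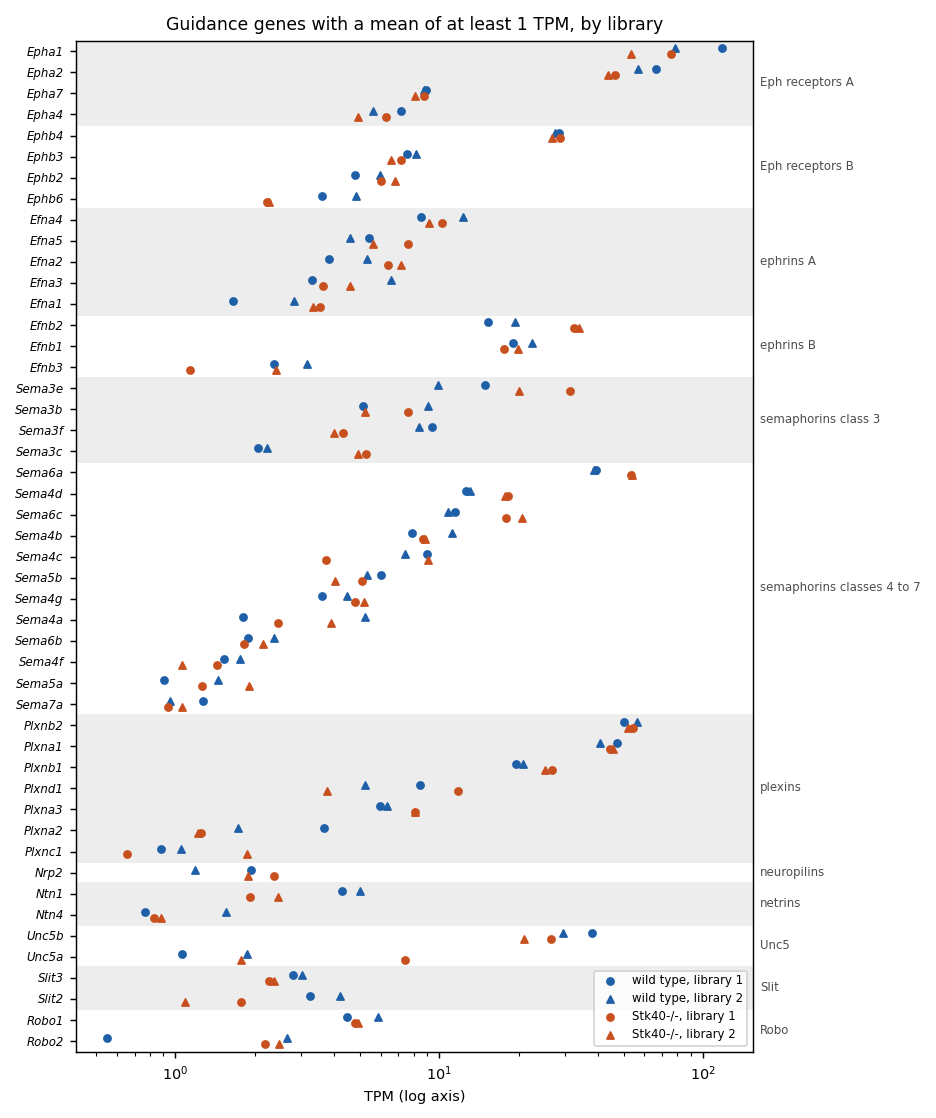
TPM of each guidance gene with a mean of at least 1 TPM, on a log axis, with 1 point per library, grouped by family and ordered by level. Epha1, Epha2, Plxnb2, Plxna1 and Sema6a hold the highest levels, and the Stk40-/- points stand apart from the wild-type points for genes such as Efnb2, Sema6a and Sema3f.

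Between genotypes guidance genes lay on both sides. limma, a linear model with moderated variance fitted over all 15739 tested genes on log2(TPM + 1), passed 0 of the 48 as higher and 0 as lower in Stk40-/- cells at an adjusted p under 0.05 (smallest adjusted p = 0.289). Over all tested genes 0% passed in either direction, so the absence of calls is not particular to guidance genes. At an unadjusted p under 0.05, 7 guidance genes were higher (14.6%, against 6.48% of all tested genes) and 4 were lower (8.33%, against 4.51%). Groups that do not overlap are described below as apart, meaning that both Stk40-/- libraries lay on the same side of both wild-type libraries. By that count 13 of the 48 were higher (27.1%, against 27.5% of all tested genes) and 13 were lower (27.1%, against 16.6%). With all 4 libraries the share of higher genes was thus near the background and that of lower genes above it. This depended on wild-type library 2. Without it 50% were higher, against 40.0% of all tested genes, and 33.3% were lower, against 31.8%. The same 27.5% and 16.6% are the background for the counts of each family below. Over the tested protein-coding genes alone these shares were 29.7% and 17.3%. The median log2 fold change of the 48 was -0.065, beside 0.065 over all tested genes, and it was 0.082 without wild-type library 2 (0.045 over all tested genes). Between the wild-type libraries themselves, the median log2 difference (library 2 minus library 1) was 0.12 for the 48 and -0.021 over all tested genes. With 2 libraries against 2, an exact permutation test cannot give a p below 0.333. Fold changes below are differences in mean log2(TPM + 1), Stk40-/- minus wild type, a scale that makes the change of low genes look smaller.

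**Figure D2:**
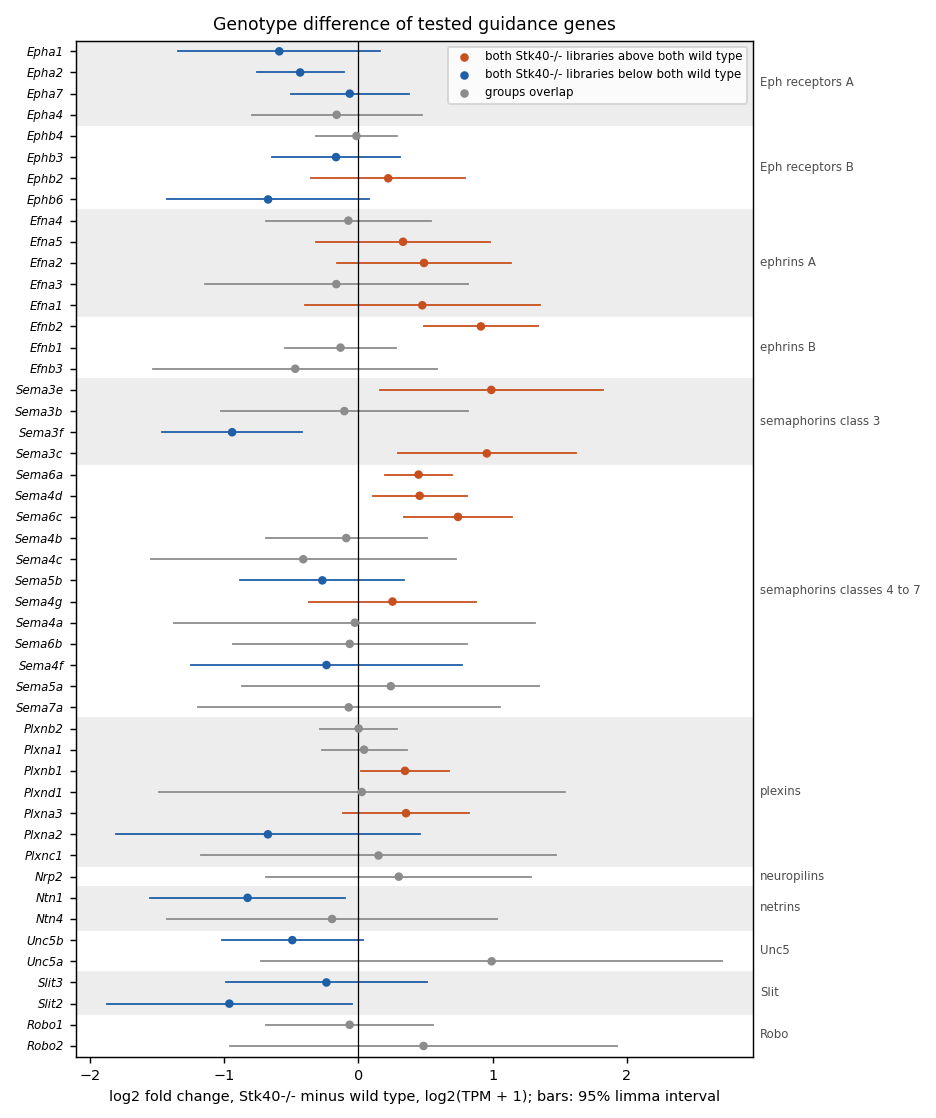
Log2 fold change (Stk40-/- minus wild type, on the log2(TPM + 1) scale) of the 48 tested guidance genes with the 95% limma interval as a bar, coloured by whether the libraries of the groups were apart. The intervals of Efnb2, Sema3e, Sema3c, Sema6a, Sema6c, Sema4d and Plxnb1 lie above 0 and those of Sema3f, Epha2, Ntn1 and Slit2 below it, before any adjustment for the number of genes.

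The DNA before the start sites of some members was searched for motifs of the factors named below, whose binding and activity were not measured. RefSeq start sites on GRCm38.p6 were at hand for 58 of the 67 genes, in 74 windows from 250 bases before to 50 after the start. The motifs, read on both strands, were TGANTCA, bound by AP-1 (the family of c-JUN), CTTTGA, bound by TCF/LEF factors of Wnt signalling, and AGGTGT, bound by T-box factors such as brachyury. Sites of different motifs can overlap, since the end of the TCF/LEF motif is the start of the AP-1 motif. TGANTCA was in 3 of 74 windows (4.05%, against 7.81% of all 32851 windows), those of Sema4c, Sema4d and Sema6b. CTTTGA was in 5 windows (6.76%, against 16%), of Epha2, Nrp2, Robo4, Sema3e and Sema6d. AGGTGT was in 8 windows (10.8%, against 13.7%), of 7 genes. A match is only a match of letters, and none of the shares exceeded that of all windows. Only these letters were searched, so other sites of the same factor families would not be marked. The 250 bases before the start are printed for 4 genes, as examples that do not stand for all members on a side. They are higher and lower members with a single window that overlaps no annotated exon, ordered by p. Some members were left out beforehand, so these are not always the eligible members with the smallest p. Capitals mark a TCF/LEF match, at -118 to -113 from the start in Sema3e, where it lies on the opposite strand, and at -209 to -204 in Epha2. Each line runs 5′ to 3′ on the strand of the gene.
Efnb2, chr8:8661243-8661492, minus strand: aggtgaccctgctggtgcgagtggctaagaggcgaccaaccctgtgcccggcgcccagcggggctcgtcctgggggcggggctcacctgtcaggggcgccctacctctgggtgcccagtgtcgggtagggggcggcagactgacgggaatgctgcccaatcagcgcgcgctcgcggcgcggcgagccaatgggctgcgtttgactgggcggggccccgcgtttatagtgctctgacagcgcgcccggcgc
Sema3e, chr5:14025026-14025275, plus strand: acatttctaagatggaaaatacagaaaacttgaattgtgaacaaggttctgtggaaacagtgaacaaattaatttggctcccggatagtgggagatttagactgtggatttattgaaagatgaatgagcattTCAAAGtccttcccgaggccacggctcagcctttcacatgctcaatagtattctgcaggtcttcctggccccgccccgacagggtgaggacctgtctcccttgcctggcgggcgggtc
Epha2, chr4:141300971-141301220, plus strand: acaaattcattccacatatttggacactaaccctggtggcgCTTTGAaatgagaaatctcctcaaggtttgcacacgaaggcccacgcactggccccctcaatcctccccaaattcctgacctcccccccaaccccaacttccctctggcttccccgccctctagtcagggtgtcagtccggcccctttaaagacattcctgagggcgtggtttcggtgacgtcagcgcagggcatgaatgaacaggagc
Unc5b, chr10:60831582-60831831, minus strand: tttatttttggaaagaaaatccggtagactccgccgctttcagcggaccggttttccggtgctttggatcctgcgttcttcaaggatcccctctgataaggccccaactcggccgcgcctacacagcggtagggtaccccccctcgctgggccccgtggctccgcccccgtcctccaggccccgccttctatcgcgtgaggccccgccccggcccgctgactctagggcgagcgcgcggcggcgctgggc
Of the genes higher in Stk40-/- cells, Efnb2 has a GC content of 72.0% with 27 CpG sites in its 250 bases, and Sema3e has 48.0% with 7. Among the lower genes, Unc5b has 66.8% with 27, and Epha2 has 55.6% with 9.

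Among the Eph receptors the leading members, Epha1 and Epha2, were lower in Stk40-/- cells. Summed over all 14, their level was 247 and 198 TPM (wild type) against 183 and 155 TPM (Stk40-/-). Of the 8 tested members 5 were apart and lower and 1 was apart and higher, beside 16.6% and 27.5% of all tested genes. Epha1 (ENSMUSG00000029859.6; chromosome 6, 42358487 to 42373268 on GRCm38), a class A receptor, was at 119 and 78.1 TPM (wild type) against 75.9 and 53.3 TPM (Stk40-/-). The groups were apart, but Stk40-/- library 1 came within 3 TPM of wild-type library 2 (limma log2 fold change -0.59 with SE 0.28, adjusted p = 0.516). Its fold change was -0.29 without wild-type library 1 but -0.89 if library 2 was dropped. Epha2 (ENSMUSG00000006445.3; chromosome 4, 141301240 to 141329384), a receptor known in stem cells and the primitive streak, was at 66.2 and 56.6 TPM (wild type) against 46.3 and 43.8 TPM (Stk40-/-). Here the libraries of a genotype lay closer to each other than the genotypes did (limma log2 fold change -0.43 with SE 0.12, adjusted p = 0.401). Epha7 was at 8.91 and 8.79 TPM (wild type) against 8.78 and 8.07 TPM (Stk40-/-), apart by a margin smaller than the spread between libraries. Epha4, a receptor of the somite boundary, was at 7.14 and 5.63 TPM (wild type) against 6.28 and 4.92 TPM (Stk40-/-), with overlapping groups. The other 5 class A receptors (Epha3, Epha5, Epha6, Epha8 and Epha10), most of them known from the nervous system, had means below 1 TPM.

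Class B Eph receptors were at almost the same summed level in both genotypes, 44.8 and 46.9 TPM (wild type) against 44.5 and 42.9 TPM (Stk40-/-). Ephb4, the ephrin-B2 receptor of veins and the leading class B receptor here, was at 28.5 and 27.4 TPM (wild type) against 28.6 and 26.7 TPM (Stk40-/-). Its values overlapped, with a limma log2 fold change of -0.015 (SE 0.11) and a 95% interval of -0.32 to 0.29 before adjustment. Ephb6, whose kinase domain is inactive, was at 3.59 and 4.82 TPM (wild type) against 2.22 and 2.26 TPM (Stk40-/-). Both Stk40-/- values were close to each other and below both wild-type values (limma log2 fold change -0.67 with SE 0.28, adjusted p = 0.485). Ephb2 was at 4.81 and 5.94 TPM (wild type) against 6.03 and 6.79 TPM (Stk40-/-) and apart by little. Ephb3 was at 7.52 and 8.17 TPM (wild type) against 7.17 and 6.59 TPM (Stk40-/-), apart and lower (limma log2 fold change -0.17 with SE 0.18, adjusted p = 0.724). It lies on chromosome 16, where 42.1% of 463 tested genes were apart and lower and the median log2 fold change was -0.17, as large as that of Ephb3. Ephb1 was below 1 TPM.

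Of the 8 ephrin ligands, all of which were tested, 4 were apart and higher in Stk40-/- cells and 0 were apart and lower. Over all tested genes 27.5% were apart and higher and 16.6% apart and lower. By sign alone, 4 ephrins had a positive and 4 a negative log2 fold change. Together the 8 ephrins summed to 59.4 and 76.6 TPM (wild type) against 82.6 and 86.3 TPM (Stk40-/-). Efnb2 (ENSMUSG00000001300.16; chromosome 8, 8617434 to 8661242) encodes ephrin-B2, the partner of EphB4 in vessels and of EphA4 at somite boundaries. It was at 15.3 and 19.3 TPM (wild type) against 32.5 and 34.0 TPM (Stk40-/-). The wild-type values were both below 20 TPM and the Stk40-/- values both above 30, a mean 1.92 times that of wild type (limma log2 fold change 0.91 with SE 0.16, adjusted p = 0.289), and this was the smallest p of any guidance gene. Leaving out any 1 library gave fold changes from 0.75 to 1.07. Efnb1, a class B ephrin gene on the X chromosome, was at 19.0 and 22.5 TPM (wild type) against 17.6 and 20.0 TPM (Stk40-/-), with overlapping groups. Efnb3 was at 2.37 and 3.15 TPM (wild type) against 1.14 and 2.41 TPM (Stk40-/-), also overlapping. Of the class B ephrins only Efnb2 was apart, and it lay below Efnb1 in both wild-type libraries and above it in both Stk40-/- libraries.

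Among class A ephrins 3 of 5 were apart and higher, each by less than Efnb2. Efna2 was at 3.83 and 5.34 TPM (wild type) against 6.37 and 7.18 TPM (Stk40-/-) (limma log2 fold change 0.49 with SE 0.24, adjusted p = 0.530). Efna1, a ligand of EphA1 and EphA2, was at 1.65 and 2.83 TPM (wild type) against 3.54 and 3.32 TPM (Stk40-/-) (limma log2 fold change 0.48 with SE 0.32, adjusted p = 0.638). Efna5 was at 5.42 and 4.57 TPM (wild type) against 7.61 and 5.59 TPM (Stk40-/-) (limma log2 fold change 0.33 with SE 0.24, adjusted p = 0.639). All 3 leaned on single libraries. Without wild-type library 1 the fold change was 0.29 for Efna2 and 0.21 for Efna1, which was 0.74 without wild-type library 2, and without Stk40-/- library 1 it was 0.14 for Efna5, which was 0.52 without Stk40-/- library 2. Efna4, the class A ephrin with the highest mean, was at 8.53 and 12.3 TPM (wild type) against 10.2 and 9.17 TPM (Stk40-/-), with overlapping groups (limma log2 fold change -0.075 with SE 0.23, adjusted p = 0.921). Efna3 was at 3.31 and 6.56 TPM (wild type) against 3.63 and 4.60 TPM (Stk40-/-), and wild-type library 2 held its highest value.

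Secreted class 3 semaphorins included large fold changes in both directions. Of 7 genes 4 were tested, 2 apart and higher and 1 apart and lower. Sema3e (ENSMUSG00000063531.7; chromosome 5, 14025276 to 14256689), which signals through plexin D1 without a neuropilin, was at 14.9 and 9.87 TPM (wild type) against 31.3 and 20.1 TPM (Stk40-/-). Both Stk40-/- libraries were above the wild-type libraries, but they differed from each other by more than the nearest values across genotypes did (limma log2 fold change 0.99 with SE 0.31, adjusted p = 0.419). Sema3c, a cue known from the outflow tract of the heart, was at 2.06 and 2.23 TPM (wild type) against 5.28 and 4.92 TPM (Stk40-/-). Its 2 libraries per genotype were close together and the mean was 2.38 times that of wild type (limma log2 fold change 0.96 with SE 0.25, adjusted p = 0.400). Sema3f (ENSMUSG00000034684.12; chromosome 9, 107681500 to 107710475), a repellent that uses neuropilin 2, lay on the other side and was at 9.40 and 8.39 TPM (wild type) against 4.31 and 3.98 TPM (Stk40-/-). Again the libraries of a genotype were close together, with the Stk40-/- mean 0.466 times that of wild type (limma log2 fold change -0.94 with SE 0.19, adjusted p = 0.328). Sema3b was at 5.15 and 9.11 TPM (wild type) against 7.61 and 5.24 TPM (Stk40-/-), with overlapping groups.

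The neuropilins that class 3 semaphorins use were low. Nrp2 was at 1.94 and 1.18 TPM (wild type) against 2.37 and 1.89 TPM (Stk40-/-), with overlapping groups (limma log2 fold change 0.30 with SE 0.37, adjusted p = 0.762). That value was 0.52 without wild-type library 1 but 0.085 if library 2 was dropped. Nrp1, the co-receptor of Sema3a and of VEGF, was below the 1 TPM limit with 0.658 and 0.986 TPM in wild type and 0.169 and 0.443 TPM in Stk40-/- cells, apart and lower. Sema3d, also below the limit, was at 0.969 and 0.234 TPM (wild type) against 0.982 and 1.49 TPM (Stk40-/-), apart and higher.

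Of the 13 semaphorins of classes 4 to 7, 12 were tested, 4 apart and higher and 2 apart and lower. Those that were higher included the 3 most abundant. Sema6a (ENSMUSG00000019647.16; chromosome 18, 47235598 to 47368870), a transmembrane ligand of class A plexins, was at 39.4 and 38.5 TPM (wild type) against 53.2 and 53.9 TPM (Stk40-/-). Its libraries agreed within 1 TPM in each genotype, and the genotypes differed by over 10 TPM (limma log2 fold change 0.45 with SE 0.09, adjusted p = 0.331). Sema6c, of the same class, was at 11.5 and 10.8 TPM (wild type) against 18.0 and 20.6 TPM (Stk40-/-) (limma log2 fold change 0.74 with SE 0.15, adjusted p = 0.319). Sema4d, the ligand of plexin B1, was at 12.7 and 13.1 TPM (wild type) against 18.3 and 17.8 TPM (Stk40-/-) (limma log2 fold change 0.46 with SE 0.13, adjusted p = 0.401). In these 3 genes the spread between libraries was small beside the genotype difference. Sema4g was at 3.60 and 4.48 TPM (wild type) against 4.78 and 5.19 TPM (Stk40-/-), apart and higher, with a gap between the genotypes smaller than the spread between the wild-type libraries (limma log2 fold change 0.25 with SE 0.23, adjusted p = 0.678), and its fold change was 0.13 without wild-type library 1.

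The lower members of these classes differed little. Sema5b was at 6.02 and 5.34 TPM (wild type) against 5.09 and 4.04 TPM (Stk40-/-) (limma log2 fold change -0.27 with SE 0.23, adjusted p = 0.650). This gene also lies on chromosome 16, and its fold change was -0.13 without Stk40-/- library 2 but -0.41 if library 1 was dropped. Sema4f was at 1.53 and 1.76 TPM (wild type) against 1.44 and 1.06 TPM (Stk40-/-) (limma log2 fold change -0.24 with SE 0.37, adjusted p = 0.821), and its value was -0.12 without Stk40-/- library 2 but -0.36 if library 1 was dropped, and -0.41 with a pseudocount of 0.01. The groups of the other 6 tested members overlapped. Sema4b was at 7.86 and 11.2 TPM (wild type) against 8.66 and 8.87 TPM (Stk40-/-). Sema4c, a ligand of plexin B2, was at 8.97 and 7.39 TPM (wild type) against 3.71 and 9.04 TPM (Stk40-/-), with Stk40-/- library 1 alone standing low. Sema4a was at 1.80 and 5.24 TPM (wild type) against 2.45 and 3.88 TPM (Stk40-/-). For these 3 the spread within a genotype exceeded the difference between genotype means. Sema6b was at 1.88 and 2.37 TPM (wild type) against 1.82 and 2.15 TPM (Stk40-/-). Sema5a was at 0.906 and 1.45 TPM (wild type) against 1.26 and 1.89 TPM (Stk40-/-). Sema7a, the lipid-anchored ligand of plexin C1, was at 1.27 and 0.953 TPM (wild type) against 0.939 and 1.06 TPM (Stk40-/-). Sema6d was not tested (mean below 1 TPM).

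Plexins, the semaphorin receptors, were among the most abundant guidance genes. Of 7 tested members 2 were apart and higher and 1 apart and lower. Plxnb2, the most abundant plexin, was at 50.4 and 56.2 TPM (wild type) against 54.5 and 52.1 TPM (Stk40-/-). Its values overlapped, with a limma log2 fold change of 0.0014 (SE 0.11) and a 95% interval of -0.28 to 0.29 before adjustment. Plxna1 was at 47.1 and 40.6 TPM (wild type) against 44.5 and 45.5 TPM (Stk40-/-), also overlapping. Plxnb1, the receptor of Sema4d, was at 19.6 and 20.8 TPM (wild type) against 26.9 and 25.1 TPM (Stk40-/-), so that this receptor and its ligand were both apart and higher (limma log2 fold change 0.35 with SE 0.12, adjusted p = 0.446). Plxna3, on the X chromosome, was at 5.96 and 6.32 TPM (wild type) against 8.13 and 8.12 TPM (Stk40-/-). Its Stk40-/- libraries differed by less than 0.1 TPM (limma log2 fold change 0.35 with SE 0.17, adjusted p = 0.530), and the median log2 fold change of 575 tested genes on X was 0.052. Plxna2, a Sema6a receptor, was at 3.66 and 1.72 TPM (wild type) against 1.25 and 1.22 TPM (Stk40-/-), apart and lower (limma log2 fold change -0.67 with SE 0.42, adjusted p = 0.609), with -0.29 without wild-type library 1 but -1.06 if library 2 was dropped. Plxnd1, the receptor of Sema3e, was at 8.46 and 5.22 TPM (wild type) against 11.8 and 3.75 TPM (Stk40-/-), and the Stk40-/- libraries held both its highest and its lowest value. Plxnc1 was at 0.881 and 1.05 TPM (wild type) against 0.656 and 1.87 TPM (Stk40-/-), with the same arrangement. Plxna4 and Plxnb3 were below 1 TPM.

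Netrins as a sum were lower in Stk40-/- cells, mostly through Ntn1. Ntn1 (ENSMUSG00000020902.12; chromosome 11, 68209364 to 68400823), the founding netrin, was at 4.29 and 4.99 TPM (wild type) against 1.92 and 2.44 TPM (Stk40-/-). Both Stk40-/- values were below 2.5 TPM and both wild-type values above 4, a mean 0.471 times that of wild type (limma log2 fold change -0.83 with SE 0.27, adjusted p = 0.434). Ntn4 was at 0.768 and 1.56 TPM (wild type) against 0.829 and 0.883 TPM (Stk40-/-), with overlapping groups. Ntn5, below the limit for testing, was at 1.41 and 0.660 TPM (wild type) against 0.135 and 0.317 TPM (Stk40-/-), apart and lower. Summed, the netrins were at 6.46 and 7.21 TPM (wild type) against 2.89 and 3.64 TPM (Stk40-/-), groups that did not overlap.

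Unc5b (ENSMUSG00000020099.8; chromosome 10, 60762593 to 60831581), a netrin receptor known from vessels, carried most of the summed Unc5 level in every library. It was at 38.1 and 29.6 TPM (wild type) against 26.5 and 21.0 TPM (Stk40-/-). The groups were apart and lower (limma log2 fold change -0.49 with SE 0.20, adjusted p = 0.473), with -0.32 without wild-type library 1. Unc5a, known mainly from neurons, was at 1.06 and 1.87 TPM (wild type) against 7.42 and 1.78 TPM (Stk40-/-): Stk40-/- library 1 alone was high, and the groups overlapped. Unc5c and Unc5d were below 1 TPM in all libraries.

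Slit2 and Slit3 were lower as well, while the tested Robo receptors overlapped. Slit2 (ENSMUSG00000031558.15; chromosome 5, 47983138 to 48307733), a ligand of Robo1 and Robo2, was at 3.22 and 4.21 TPM (wild type) against 1.78 and 1.09 TPM (Stk40-/-). The Stk40-/- mean was 0.385 times that of wild type (limma log2 fold change -0.96 with SE 0.34, adjusted p = 0.446). Slit3 was at 2.79 and 3.03 TPM (wild type) against 2.27 and 2.36 TPM (Stk40-/-), apart by a smaller margin (limma log2 fold change -0.24 with SE 0.28, adjusted p = 0.748). The summed level of the 3 Slit genes was 6.12 and 8.01 TPM (wild type) against 4.31 and 4.23 TPM (Stk40-/-). Robo1 was at 4.48 and 5.86 TPM (wild type) against 4.79 and 4.93 TPM (Stk40-/-) (limma log2 fold change -0.066 with SE 0.23, adjusted p = 0.931). Robo2 was at 0.551 and 2.64 TPM (wild type) against 2.19 and 2.47 TPM (Stk40-/-), where wild-type library 1 alone was low. Both Robo genes lie on chromosome 16. Robo4, a receptor of endothelial cells, was at 1.01 and 0.725 TPM in wild type, was listed at 0 in Stk40-/- library 1 and was at 0.0918 TPM in library 2. Of 9 endothelial markers only 2 had a mean of at least 1 TPM, Emcn was listed at 0 in all libraries, and the summed level of the list was 8.33 and 10.5 TPM in wild type and 4.76 and 8.21 TPM in Stk40-/- cells, whose part in the Robo4 values was not tested.

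In all, 19 of the 67 guidance genes were below a mean of 1 TPM, with values from 0 to 1.78 TPM. Among them the groups overlapped in 14, 4 were apart and lower (Nrp1, Ntn5, Robo4 and Sema3g) and 1 was apart and higher (Sema3d). Sema3g is named here after its values were seen, and was at 0.208 and 0.123 TPM (wild type) against 0.0335 and 0 TPM (Stk40-/-), where the last library is listed at 0. The rest were Epha3, Epha5, Epha6, Epha8, Epha10, Ephb1, Plxna4, Plxnb3, Robo3, Sema3a, Sema6d, Slit1, Unc5c and Unc5d, many of them known best from neurons. At these levels the precision of a TPM value cannot be judged from the table. No share of genes apart was computed for genes below 1 TPM alone. With every gene of a mean above 0 TPM included, 14 of the 67 guidance genes were apart and higher (20.9%, against 20.7% of all such genes). In that setting 17 were apart and lower (25.4%, against 14.6%).

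**Figure D3:**
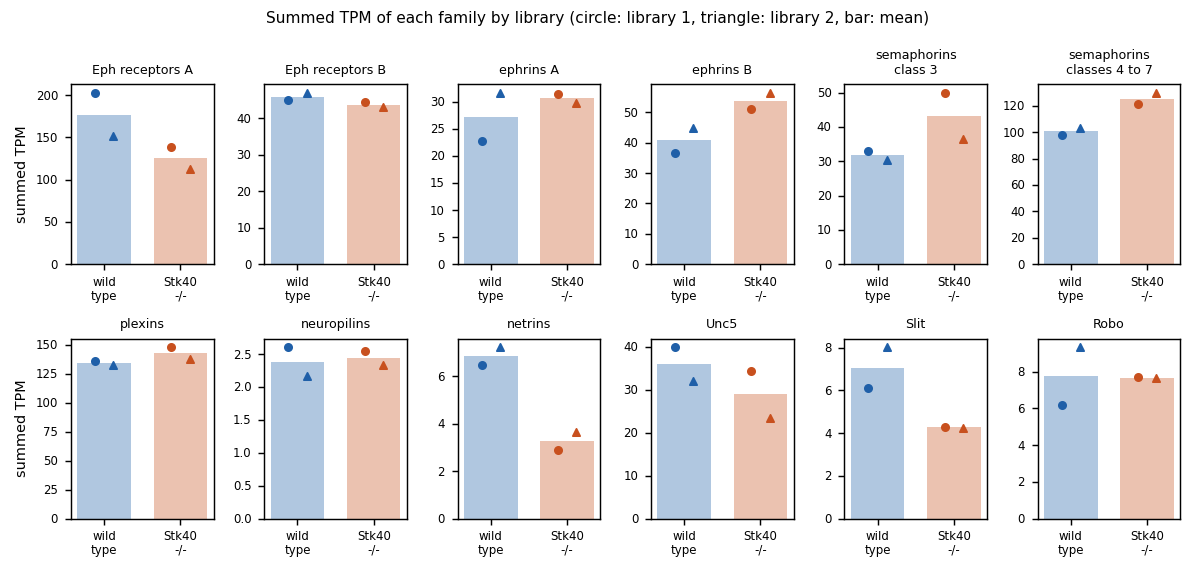
Summed TPM of all members of each family in each library, with the bar at the genotype mean. Class A Eph receptors, netrins, Slit genes and, by little, class B Eph receptors were lower in both Stk40-/- libraries. Class B ephrins, both groups of semaphorins and, by little, plexins were higher.

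Ligands and receptors were also counted by role, and the difference between the roles was not tested. Of 28 tested ligands 10 were apart and higher and 6 apart and lower, and of 20 tested receptors 3 were apart and higher and 7 apart and lower, beside 27.5% and 16.6% of all tested genes. By sign alone, 11 ligands had a positive and 17 a negative log2 fold change (median -0.074), and the receptors split into 10 and 10 (median -0.0069). The ligand median was thus below 0 although more ligands were apart and higher than apart and lower. The 34 ligands summed to 203 and 226 TPM (wild type) against 261 and 260.2 TPM (Stk40-/-), groups that did not overlap. The 33 receptors summed to 432 and 374 TPM (wild type) against 375 and 326 TPM (Stk40-/-), which overlapped. A few genes made these sums. Efnb2, Sema6a, Sema3e, Sema6c and Sema4d together added 57.1 TPM to the ligand mean, more than its whole difference of 46.5 TPM, and the other 29 ligands summed to 109 and 134 TPM in wild type and to 108 and 114 TPM in Stk40-/- cells. Without Epha1, Epha2 and Unc5b, the other 30 receptors summed to 209 and 210.0 TPM in wild type and to 227 and 208 TPM in Stk40-/- cells. These genes were picked for their size after the values were seen, so the sums without them are a description.

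**Figure D4:**
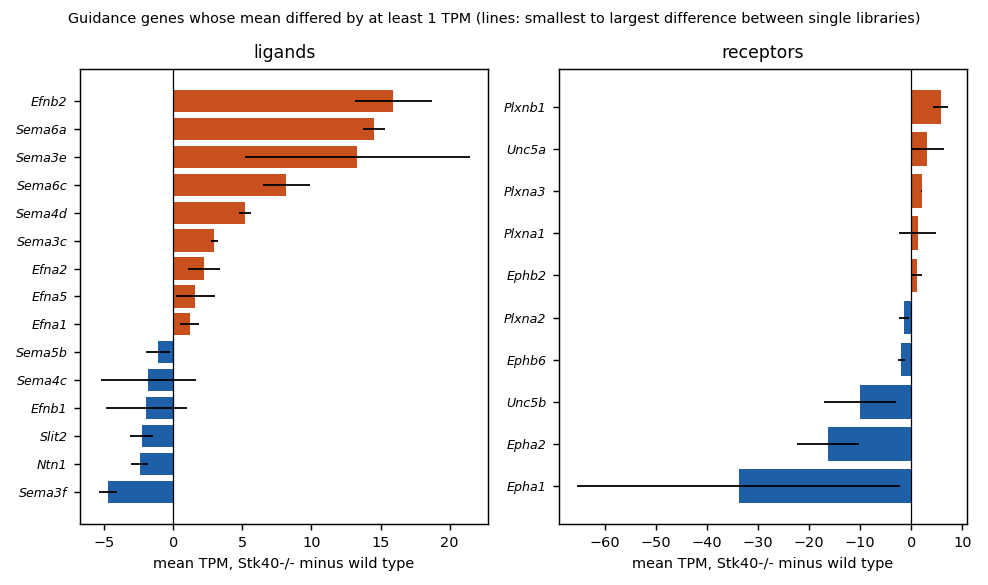
Difference in mean TPM (Stk40-/- minus wild type) of ligands and receptors that differed by at least 1 TPM, with lines from the smallest to the largest difference between single libraries. Efnb2 leads the ligands with 15.9 TPM, and Epha1 leads the receptors with -33.8 TPM and the widest line.

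Differences between genotypes and between libraries of a genotype can be set side by side, although the former are differences of means of 2 libraries and the latter of single libraries. The median absolute log2 fold change of the 48 tested guidance genes was 0.28, beside a median absolute log2 difference of 0.26 between the wild-type libraries and of 0.15 between the Stk40-/- libraries. Over all tested genes the same 3 medians were 0.23, 0.22 and 0.20. Over the 12910 tested protein-coding genes alone, the type all guidance genes belong to, they were 0.20, 0.20 and 0.17.

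Genes that act beside these cues, from 4 lists, were more often apart and higher in Stk40-/- cells than all tested genes were. The lists were chosen with earlier results of these data known, so their counts are a description. Of 82 such genes 73 were tested, and 31 were apart and higher (42.5%, against 27.5% of all tested genes) and 8 apart and lower (11.0%, against 16.6%). In limma 0 passed in either direction. At an unadjusted p under 0.05 in limma, 6 were higher (8.22%, against 6.48% of all tested genes) and 2 lower (2.74%, against 4.51%). Their median log2 fold change was 0.14, beside 0.065 over all tested genes. Among 10 tested further ligands and receptors 5 were apart and higher and 0 lower. Vegfa, whose product binds neuropilins, was at 26.5 and 21.4 TPM (wild type) against 40.8 and 31.2 TPM (Stk40-/-). The heparan sulphate carrier gene Gpc1 was at 22.1 and 22.1 TPM (wild type) against 27.3 and 26.6 TPM (Stk40-/-) and the VEGF receptor gene Flt1 at 4.66 and 3.23 TPM (wild type) against 5.22 and 5.57 TPM (Stk40-/-). Of 21 tested Eph and ephrin effectors 8 were apart and higher and 2 apart and lower. The adaptor gene Grb10 was at 51.7 and 49.7 TPM (wild type) against 66.7 and 66.8 TPM (Stk40-/-). Vav2 was at 12.8 and 12.1 TPM (wild type) against 18.7 and 16.5 TPM (Stk40-/-), and Tiam1, an exchange factor for Rac, at 8.22 and 8.08 TPM (wild type) against 9.85 and 12.1 TPM (Stk40-/-). Among 21 tested plexin and semaphorin effectors 7 were apart and higher and 1 lower. Crmp1, a mediator of semaphorin signals on microtubules, was at 27.6 and 38.4 TPM (wild type) against 49.9 and 58.2 TPM (Stk40-/-). The GTPase gene Rras, on whose product plexins act, was at 75.3 and 73.5 TPM (wild type) against 109 and 88.5 TPM (Stk40-/-), and the actin-severing cofilin gene Cfl1 was the lower one, at 648 and 642 TPM (wild type) against 551 and 593 TPM (Stk40-/-). Of 21 tested effectors of Slit, Robo, netrin and Unc5 signals 11 were apart and higher and 5 lower. Cdc42 was at 402 and 387 TPM (wild type) against 325 and 343 TPM (Stk40-/-). The kinase gene Pak1, whose product is an effector of Cdc42, was at 58.9 and 63.2 TPM (wild type) against 73.5 and 82.9 TPM (Stk40-/-), and Vasp, which elongates actin filaments, at 97.8 and 84.5 TPM (wild type) against 75.4 and 74.9 TPM (Stk40-/-). None of these genes passed limma after adjustment (smallest adjusted p = 0.361), and 0% of all tested genes did.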

How the data were processed

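Expression in 4 libraries was analysed, grouped and numbered by the sample titles. Polyadenylated RNA was read in pairs on either of 2 instruments at different read lengths, per the labels' protocols. The labels do not assign libraries to instruments, so instrument was no term in any fit.

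The deposited values are TPM per gene, per the file headers, 1 column per library, each summing to 1000000. Per the submitters' processing notes, Salmon 0.8.2 and CASAVA 1.7 were used and the human build hg38 is listed, although all gene IDs are mouse Ensembl IDs. No annotation is named, so it counts as not given in the sources used here. Salmon shares reads among similar transcripts, and a rise of abundant RNAs lowers all other TPM values of that library. There were 0 unused per-sample columns. Positions are from GENCODE vM21 (GRCm38), matched by Ensembl ID without version for 51633 genes, of which 47648 also matched in version (57 of the 67 guidance genes).

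Tests covered genes whose mean reached 1 TPM and used limma (3.58.1, under R 4.3.3) on log2(TPM + 1) (empirical Bayes with intensity trend, 2 against 2 libraries, Benjamini-Hochberg over 15739 genes, threshold 0.05). The procedure was also run on simulated data. Their noise was drawn from the variances of this same fit, so they do not cover differences between lines. limma statistics are printed for at most 12 members per direction that were apart, by smallest p, and for the member with the highest mean of each family. From each partner list up to 3 genes with the smallest p are named. Members and lists were chosen with earlier results of these data known. Alternatives were pseudocounts, filters, scalings, no trend, a replicate block, and each library left out, where the lone library of a genotype is assumed to vary like the other genotype. Promoter windows are RefSeq's, on GRCm38.p6.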

Additional observations from a re-analysis of the deposited data

How the results depend on the processing

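No alternative gave a guidance gene an adjusted p under 0.05 in limma, whether higher or lower (pseudocounts of 0.1 and 0.01, means above 0 or of at least 5 TPM, rescaling without mitochondrial and ribosomal protein genes, centring on library medians, no trend, or 1 library left out). With the replicate number as a block, 0 passed higher and 0 lower and the median log2 fold change was -0.065, as without it. The numbers come from titles only, and deviations of same-numbered libraries from their group means correlated weakly (r = 0.089 over 15739 genes), so they are not taken as pairs. A block gives no count of groups apart. With 1 library left out, 15 to 24 guidance genes were apart and higher and 16 to 25 apart and lower, since 3 libraries overlap less often. The highest counts were 24 higher without wild-type library 2 (50%, against 40.0% of all tested genes) and 25 lower without wild-type library 1 (52.1%, against 28.3%). In the same 2 settings 16 were lower without wild-type library 2 (33.3%, against 31.8%) and 15 higher without wild-type library 1 (31.2%, against 44.1%). The median ranged from -0.10 to 0.082. With a minimum mean of 5 TPM, which leaves 28 guidance genes, 7 were apart and lower (25.0%, against 16.9% of all genes then tested) and 10 apart and higher (35.7%, against 30.9%). Centring on library medians gave a median of -0.15, and subtracting each chromosome's median -0.088. With 1 library left out the fold change of Efna4 ranged from -0.32 to 0.17, of Ephb4 from -0.063 to 0.032, of Plxnb2 from -0.077 to 0.079 and of Robo1 from -0.23 to 0.097. For Plxnb2 it was -0.0017 after rescaling and -0.079 after centring. The cause was not tested. Of the fold changes printed for single genes, all others kept their sign in the alternatives that were run for them. Chromosome medians were subtracted for the list median only, not for single genes.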

Other observations

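Ratios of 2 guidance genes within a library do not depend on the scaling of that library. Efnb2 stood at 0.804 and 0.861 times the level of Efnb1 in wild type and at 1.85 and 1.7 times in Stk40-/- cells. Against its receptor gene Ephb4, Efnb2 was at 0.536 and 0.706 times in wild type and at 1.14 and 1.27 times in Stk40-/- cells. The class 3 semaphorin Sema3e was at 1.59 and 1.18 times Sema3f in wild type and at 7.26 and 5.05 times in Stk40-/- cells. Slit2 was above Slit3 in wild type (1.16 and 1.39 times) and below it in Stk40-/- cells (0.784 and 0.461 times). Epha1 to Epha2 gave 1.79 and 1.38 in wild type and 1.64 and 1.22 in Stk40-/- cells, which overlapped. These pairs were chosen after the values were seen, and the differences in ratio were not tested.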
